A study of Mus musculus with 15 samples.

Results

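The clustered histone genes are the mouse genes for the core histones H2A, H2B, H3 and H4 and the linker histone H1 that lie together in the Hist1 to Hist4 clusters. They were taken as every protein-coding row whose symbol begins with Hist1h, Hist2h, Hist3h or Hist4h, which gave 50 of the 27174 genes in the table. They were 5 genes of H1, 11 of H2A, 13 of H2B, 10 of H3 and 11 of H4, and 42 of the 50 lay in the Hist1 cluster on chromosome 13. Their scores were followed through 15 total RNA libraries made from microvessels of the brains of adult wild-type BL6/57 mice. Each library was a pool of microvessels from 3 mice taken 21 days after transplantation. There were 5 groups of 3 libraries. The first was from sham mice. Control IgG was the only treatment in the next pair, one from the hemisphere without tumour (contralateral) and one from the tumour region (untreated tumour). The last pair was from the tumour region of treated mice: those under dual therapy received Aflibercept, a decoy that traps VEGF, together with AMG386, a peptibody against angiopoietins, and those under triple therapy also received anti-PD1, an antibody to an immune checkpoint receptor. The tumour was an orthotopic glioblastoma, and its cell line was not stated in the material used.

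Most clustered histone genes are expressed when DNA is replicated. Their mRNAs carry no poly(A) tail and end instead just after a short stem-loop, which binds the stem-loop binding protein (Slbp) during processing, export and translation, and the mRNAs are degraded when replication ends. Some of these genes also give polyadenylated mRNA in cells that no longer divide, Hist1h1c, Hist1h2bc and Hist2h2be among them. A library made from total RNA reads both forms, while one selected on poly(A) tails would read mainly the second.

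In each member's longest annotated protein-coding transcript (GENCODE M21, GRCm38) the stem-loop was searched for within 150 bases after the stop codon. It was defined as 16 bases, a stem of 6 paired bases on each side of a loop of 4. The first bases had to be GG, the last CC and the pair next to the loop T-A, so these letters were set by the search. A match was found in 37 of the 50 members. In 11 others there was no match and the annotated transcript ended less than 150 bases after the stop codon. These 11 are called models that end before a stem-loop could be read, although a stem-loop of other letters would have been missed. In Hist1h2bc and Hist2h2be the full window held no match. Among the transcripts of other protein-coding genes 39 of 44302 held a match (0.088%). They came from 30 genes, which include H2afx and clustered histone genes absent from the 50, such as Hist1h1t, Hist1h2ao and Hist2h3c1. The sequences below show the site in 7 members whose scores are described later, 5′ to 3′ on the strand of the gene, with the stem-loop in capitals and 5 bases of the 3′ UTR on each side.
Hist1h1d, chr13:23555782-23555807, plus strand: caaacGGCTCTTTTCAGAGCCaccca
Hist1h1c, chr13:23739507-23739532, plus strand: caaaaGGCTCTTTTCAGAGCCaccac
Hist2h2ac, chr3:96220413-96220438, minus strand: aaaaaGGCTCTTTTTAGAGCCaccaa
Hist3h2a, chr11:58955167-58955192, plus strand: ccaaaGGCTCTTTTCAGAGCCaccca
Hist1h3c, chr13:23745042-23745067, minus strand: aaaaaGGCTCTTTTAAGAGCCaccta
Hist1h4f, chr13:23551286-23551311, minus strand: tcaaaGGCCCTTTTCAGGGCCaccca
Hist4h4, chr6:136803993-136804018, minus strand: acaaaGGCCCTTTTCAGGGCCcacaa
The form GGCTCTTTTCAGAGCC was the most frequent, in 20 members of H1, H2A, H2B and H3. The 10 H4 members with a stem-loop each had another stem, and 6 of them had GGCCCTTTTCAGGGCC.

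Promoter windows of 300 bases were available from RefSeq (GRCm38.p6) for 45 of the 50 members. They were searched on both strands for the octamer ATTTGCAT, which binds Oct1 (Pou2f1) in H2B promoters, for CCAAT, for TATAAA and for the H1 box AAACACAA. The octamer occurred in 5 of 11 H2A and 4 of 11 H2B windows, in none of the windows of H1, H3 or H4, and in 1.735% of all 32851 RefSeq windows. CCAAT occurred in every window of H1, H2A, H2B and H3 but in 3 of 10 windows of H4, against 37.41% of all windows. TATAAA occurred in 29 of the 45 windows and in 13.62% of all. The H1 box occurred in 3 of 5 H1 windows, in 1 of 11 windows of H2A and 1 of 11 of H2B, in none of H3 or H4, and in 1.93% of all. The windows of 4 members are shown, from 250 bases before the RefSeq start of transcription to 50 after it, with matches to these motifs on either strand in capitals. Scores of the first 3 rose in untreated tumour, and that of Hist3h2a did not pass the test.
Hist1h1b, chr13:21780576-21780875, minus strand: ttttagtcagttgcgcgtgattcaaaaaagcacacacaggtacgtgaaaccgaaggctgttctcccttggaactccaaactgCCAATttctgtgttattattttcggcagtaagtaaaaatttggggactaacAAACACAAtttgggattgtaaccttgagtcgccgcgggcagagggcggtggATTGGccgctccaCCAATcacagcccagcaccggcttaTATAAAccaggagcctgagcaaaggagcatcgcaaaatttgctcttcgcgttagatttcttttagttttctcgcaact
Hist2h2ac, chr3:96220831-96221130, minus strand: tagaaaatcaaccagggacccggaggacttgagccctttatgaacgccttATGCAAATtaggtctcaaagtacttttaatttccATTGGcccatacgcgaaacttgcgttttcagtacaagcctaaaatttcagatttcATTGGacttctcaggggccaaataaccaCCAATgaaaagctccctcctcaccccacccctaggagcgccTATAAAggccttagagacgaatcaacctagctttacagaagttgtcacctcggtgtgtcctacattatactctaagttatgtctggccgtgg
Hist1h4f, chr13:23551619-23551918, minus strand: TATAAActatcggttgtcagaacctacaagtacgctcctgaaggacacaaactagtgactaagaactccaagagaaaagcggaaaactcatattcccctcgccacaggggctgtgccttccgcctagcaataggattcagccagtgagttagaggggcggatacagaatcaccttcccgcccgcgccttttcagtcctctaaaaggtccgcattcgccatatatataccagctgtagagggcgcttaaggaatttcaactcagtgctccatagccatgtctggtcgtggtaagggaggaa
Hist3h2a, chr11:58954435-58954734, plus strand: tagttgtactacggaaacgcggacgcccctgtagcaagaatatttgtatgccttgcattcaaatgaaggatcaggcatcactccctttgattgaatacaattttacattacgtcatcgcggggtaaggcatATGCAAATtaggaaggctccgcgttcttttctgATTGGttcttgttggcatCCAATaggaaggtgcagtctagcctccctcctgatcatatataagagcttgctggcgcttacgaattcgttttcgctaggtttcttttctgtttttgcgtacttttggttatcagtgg
The octamer, read here as ATGCAAAT, and CCAAT stood in the windows of both Hist2h2ac, which rose, and Hist3h2a.

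The deposited value of a gene in a library is a normalised score, close to reads multiplied by a factor for that library and rounded. Per library, the scores added up to 11134670 at the lowest and 15799111 at the highest, and the reads behind them were estimated at 6365348 to 18318084. A score of a few units is therefore a few reads, and 7 members were listed at 0 in all contralateral libraries. Whether the mice of different pools were housed or treated together is not given, so p-values measure the spread between these pools. The share of the total score held by the mitochondrial rRNA genes was highest in untreated tumour, at 22.4%, 33.2% and 21.5%, and ranged from 9.55% to 17.4% in the other 12 libraries. Its part in the results was not tested. When libraries were instead brought to an equal sum over protein-coding nuclear genes, the median log2 difference of all genes tested between untreated tumour and contralateral moved from 0.0083 to 0.187.

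The summed score of the 50 members was 1459, 1555 and 1459 in sham, 1669, 1146 and 1543 in contralateral, 4860, 3145 and 3253 in untreated tumour, 1871, 1549 and 1710 after dual therapy and 1707, 1445 and 1789 after triple therapy. Every untreated tumour library lay above every other library, and replicate 1 of untreated tumour was the highest. The mean was 3753 ± 960 (SD, n = 3) in untreated tumour against 1453 ± 273 in contralateral, 2.58 times as high. H3 genes had the largest ratio of summed scores, 220 ± 37.2 against 21 ± 7.55 (10.5 times). The ratio was 3.39 for H2A, 2.75 for H1, 2.04 for H2B and 1.77 for H4. In all 5 groups the mean summed score was lowest for H3 genes and highest for H1 genes among the 5 classes. These sums describe the libraries and were not tested.

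**Figure D1:**
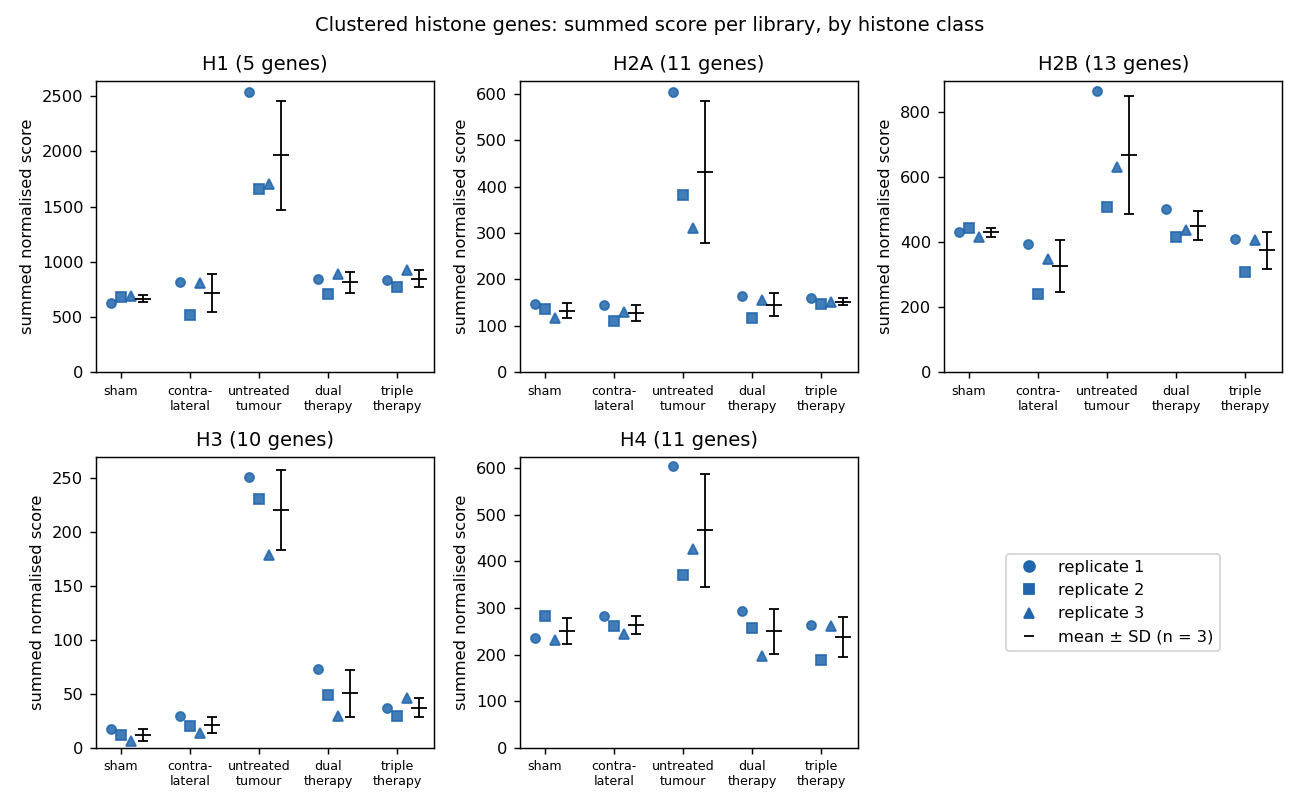
Summed normalised score (vertical axes, from 0) of the clustered histone genes of each class in every library of the 5 groups, with replicate numbers as symbols and mean ± SD (n = 3) as a bar. In each class the 3 untreated tumour libraries lie above all other libraries, and the ratio of untreated tumour to contralateral is largest for H3 (10.5) and smallest for H4 (1.77).

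Each gene was tested with limma on log2(score + 1), with all 5 groups in 1 fit and p-values adjusted over all 19668 genes that reached a score of 10 in 3 or more libraries. Of the 50 members 36 passed that filter, 12 of them only through the untreated tumour libraries, so the counts of tested members favour genes that are high there. Between untreated tumour and contralateral 25 of the 36 rose and 0 fell at an adjusted p below 0.05, beside 21.1% of all genes tested that rose and 21.4% that fell. At an unadjusted p below 0.05 the number that fell was also 0, and voom on approximate reads called 18 risen and 0 fallen. Fitted without the filter, 28 of all 50 rose and 0 fell, beside 16.3% of all genes that rose, and the median log2 difference over the 50 was 1.84 beside 0.03 over all genes. By class, the numbers risen without the filter were 4 of 5 for H1, 5 of 11 for H2A, 10 of 13 for H2B, 6 of 10 for H3 and 3 of 11 for H4. In 30 of the 50 every untreated tumour library was above every contralateral library, which held for 20.6% of all genes. The number risen was 15 without untreated tumour replicate 1 and 16 without untreated tumour replicate 3, and without replicate 3 Hist2h2be alone fell.

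**Figure D2:**
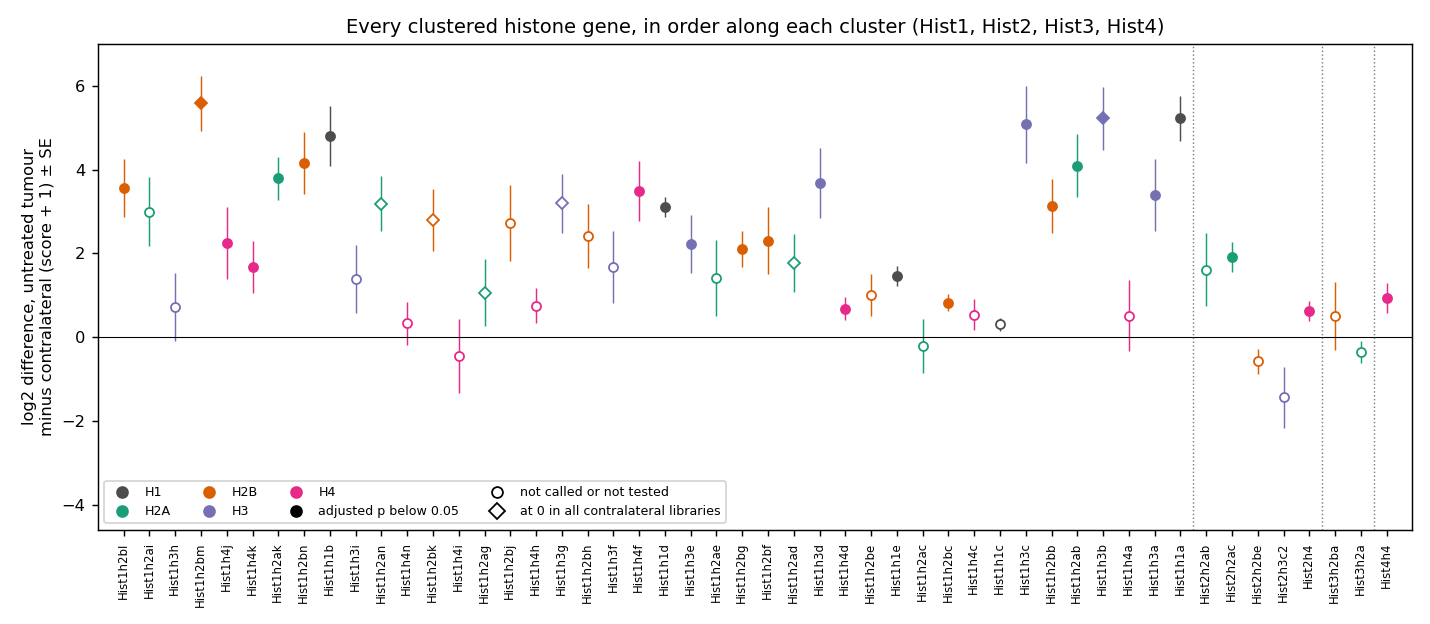
Log2 difference of score + 1 between untreated tumour and contralateral for all 50 members, with SE from the fit without a filter on low scores (vertical axis), in order along each cluster (horizontal axis, dotted lines between clusters). Colour gives the histone class, filled symbols the 25 members that rose at an adjusted p below 0.05 in the filtered fit, and diamonds the 7 members at 0 in all contralateral libraries, whose height depends on the pseudocount; 45 of the 50 lie above 0.

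Of the linker histone genes 4 of 5 rose. Hist1h1d, the gene for linker histone H1.3 (chr13:23553262-23560686), had scores of 65, 44 and 47 in contralateral and 506, 400 and 444 in untreated tumour. The groups were far apart, and the log2 difference was 3.10 ± 0.24 (SE, adjusted p = 3.9e-08). Hist1h1a (H1.1) went from 5, 4 and 5 to 328, 141 and 200, a log2 difference of 5.22 ± 0.53 (adjusted p = 5e-07). No sham or contralateral library had more than 12. Hist1h1b (H1.5), whose promoter window holds the H1 box, had 16, 9 and 0 in contralateral and 235, 114 and 138 in untreated tumour (log2 difference 4.81 ± 0.73, adjusted p = 4.1e-05). Hist1h1e (H1.4) was already high in contralateral, at 241, 150 and 258, and reached 845, 520 and 447 (1.46 ± 0.25, adjusted p = 0.00013). It shares exons on the same strand with Hist1h2be, so reads there may be divided between them. Hist1h1c (H1.2), known for expression in resting cells too, had 493, 309 and 497 in contralateral and 623, 480 and 477 in untreated tumour. These groups overlapped, and the log2 difference was 0.30 ± 0.16 (adjusted p = 0.14). The 5 linker histone genes thus started from very different levels. Per kilobase of transcript the contralateral mean score was 278 for Hist1h1c, 112 for Hist1h1e, 7 for Hist1h1d and 6.3 for Hist1h1a, and in untreated tumour it was 338, 313, 60.6 and 301. The annotated transcript of Hist1h1d runs 4884 bases past its stem-loop, and its value per kilobase is divided by that whole length.

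Among the H2A genes, which encode one partner of the H2A-H2B dimer, 3 of 6 tested rose. Hist1h2ak had 8, 12 and 8 in contralateral and 202, 117 and 116 in untreated tumour (log2 difference 3.79 ± 0.49, adjusted p = 7.4e-06). Per kilobase of transcript it had the highest mean score of all members in untreated tumour, 369, against 23.7 in contralateral. Less than 50% of the fragments of 50 bases from its transcript were unique among annotated transcripts, so its own score and this rank are uncertain. Hist1h2ab rose from 13, 2 and 1 to 123, 64 and 51 (4.09 ± 0.75, adjusted p = 0.00024), and Hist2h2ac on chromosome 3 from 25, 22 and 22 to 114, 102 and 60 (1.91 ± 0.35, adjusted p = 0.00023). In these 3 genes the groups did not overlap. Hist3h2a, on chromosome 11, went the other way in its values, from 78, 60 and 76 to 62, 51 and 52, but did not pass the test (-0.37 ± 0.25, adjusted p = 0.26). It shares exons with Trim17 on the same strand.

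Of the 10 tested H2B genes 7 rose, but 4 of the 10 had passed the filter only through untreated tumour, Hist1h2bm among them. That count was thus favoured by the filter. Hist1h2bm, listed at 0 in all contralateral libraries and at 2, 0 and 0 in sham, had 64, 42 and 39 in untreated tumour (adjusted p = 3.2e-06). Hist1h2bg had 21, 17 and 10 in contralateral and 121, 48 and 58 in untreated tumour (2.11 ± 0.41, adjusted p = 0.00043). Hist1h2bc, one of the genes with a polyadenylated form, had 157, 111 and 165 in contralateral and 293, 232 and 234 in untreated tumour. It rose by 0.82 ± 0.21 (adjusted p = 0.0038). Hist2h2be, another such gene, had the reverse order of means, with 174, 94 and 125 in contralateral and 62, 76 and 129 in untreated tumour, overlapping groups (-0.58 ± 0.30, adjusted p = 0.14). Hist2h2be and Hist2h2ac are neighbours on opposite strands with 238 bases between their starts, and 7 such H2A-H2B pairs lie head to head in the clusters. Both genes were tested in 4 of the pairs. In Hist1h2ak and Hist1h2bn both rose, and in Hist2h2ac and Hist2h2be the H2A gene alone passed the test. The H2B gene alone did in Hist1h2ae and Hist1h2bg and in Hist1h2ac and Hist1h2bc. Hist1h2bn and Hist1h2ae had passed the filter only through untreated tumour.

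The 5 tested H3 genes rose, but 4 of them had passed the filter only through untreated tumour, Hist1h3b and Hist1h3c among them. That count was thus favoured by the filter. None of the 5 scored above 10 in a sham or contralateral library. Hist1h3c had 5, 0 and 0 in contralateral and 81, 58 and 47 in untreated tumour (5.08 ± 0.96, adjusted p = 0.00034). Hist1h3b was listed at 0 in all 6 sham and contralateral libraries and at 34, 61 and 23 in untreated tumour (adjusted p = 4.8e-05). Hist1h3e had 6, 10 and 7 in contralateral and 33, 35 and 50 in untreated tumour (2.22 ± 0.67, adjusted p = 0.012). In Hist1h3b and Hist1h3e less than 50% of the fragments of 50 bases were unique among annotated transcripts, so their own scores are uncertain. The other 5 H3 genes did not pass the filter, with no score above 18 in any library.

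The H4 genes, which all encode the same protein or nearly so, showed smaller differences. Of 10 tested 6 rose, and the median over all 11 was 0.68, the lowest of the 5 classes. Of the 10, 3 had passed the filter only through untreated tumour, Hist1h4f among them. Hist1h4f had 3, 0 and 3 in contralateral and 45, 23 and 20 in untreated tumour (3.50 ± 0.72, adjusted p = 0.00072). Hist2h4, Hist1h4d and Hist4h4 began from higher scores. Hist2h4 had 64, 70 and 60 against 125, 87 and 93 (0.63 ± 0.23, adjusted p = 0.032), and Hist1h4d had 60, 66 and 42 against 115, 68 and 89 (0.68 ± 0.27, adjusted p = 0.048). Hist4h4, alone on chromosome 6, had 23, 30 and 27 against 49, 53 and 53 (0.94 ± 0.32, adjusted p = 0.026). Hist1h4h, with 46, 24 and 54 against 103, 49 and 58, overlapped between groups and did not pass the test (0.75 ± 0.41, adjusted p = 0.16). Neither did Hist1h4i, with 11, 9 and 8 against 9, 2 and 13 (-0.45 ± 0.90, adjusted p = 0.72). The calls of Hist2h4, Hist1h4d and Hist4h4 were each lost in several of the alternative fits. Clustered histone genes resemble each other closely: in 21 of the 50 less than 50% of the fragments of 50 bases were unique among annotated transcripts, so a gene's own score is uncertain where reads could be divided among copies.

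**Figure D3:**
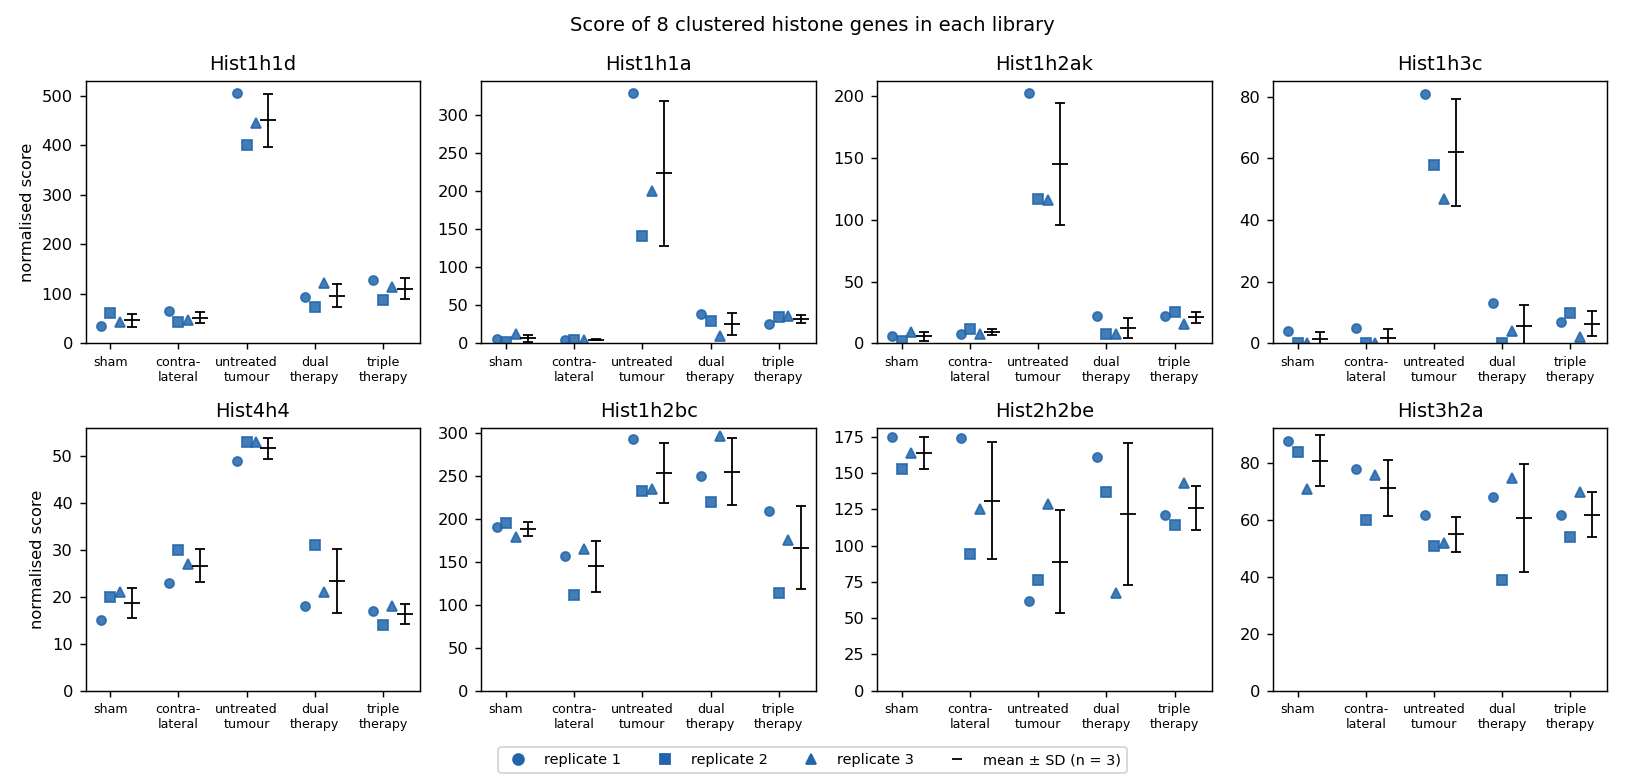
Normalised score (vertical axes, from 0) of 8 members in each of the 15 libraries, with replicate numbers as symbols and mean ± SD (n = 3) as a bar. Hist1h1d, Hist1h1a, Hist1h2ak, Hist1h3c and Hist4h4 are highest in the 3 untreated tumour libraries; Hist1h2bc is as high after dual therapy as in untreated tumour, and in Hist2h2be and Hist3h2a the untreated tumour mean is the lowest of the 5.

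The size of the difference varied with the 3′ end of the annotated transcript. In 16 members the transcript ends within 100 bases of the stem-loop, and their median log2 difference between untreated tumour and contralateral was 2.96. In 21 members it runs more than 100 bases past the stem-loop, and their median was 0.94. The 11 members whose model ends before a stem-loop could be read had a median of 3.19. These groups also differed in contralateral score, with a median of 1.5 in the 16, 12 in the 21 and 0.33 in the 11. Members listed at 0 in all libraries of a compared group numbered 6, 0 and 1. Without the filter 12 of the 16, 7 of the 21 and 8 of the 11 rose, beside 16.3% of all genes. A polyadenylation signal (AATAAA or ATTAAA) stood in the last 50 bases of 12 annotated transcripts. The median was 0.57 over these 12 and 2.57 over the 38 without the signal. Without the filter 1 of the 12 and 27 of the 38 rose, beside 16.3% of all genes. Every untreated tumour library was above every contralateral library in 3 of the 12 and 27 of the 38, beside 20.6% of all genes. The counts in the 12 are near these shares. Contralateral scores moved with the presence of the signal: the median member score was 21.8 with the signal and 2 without it. Histone class did too: of the 12 with the signal 6 were H4, 3 H2B, 2 H2A, 1 H1 and 0 H3. The parts of score and class in these differences, by transcript end or by signal, were not tested. Hist1h1c, Hist1h2bc, Hist2h2be, Hist3h2a, Hist3h2ba and Hist4h4 are 6 members known to have a polyadenylated form. Of these 2 rose in the filtered fit, beside 21.1% of all genes tested, and the median of the 6 was 0.40. These medians are descriptions, with no test of the difference between groups of members.

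**Figure D4:**
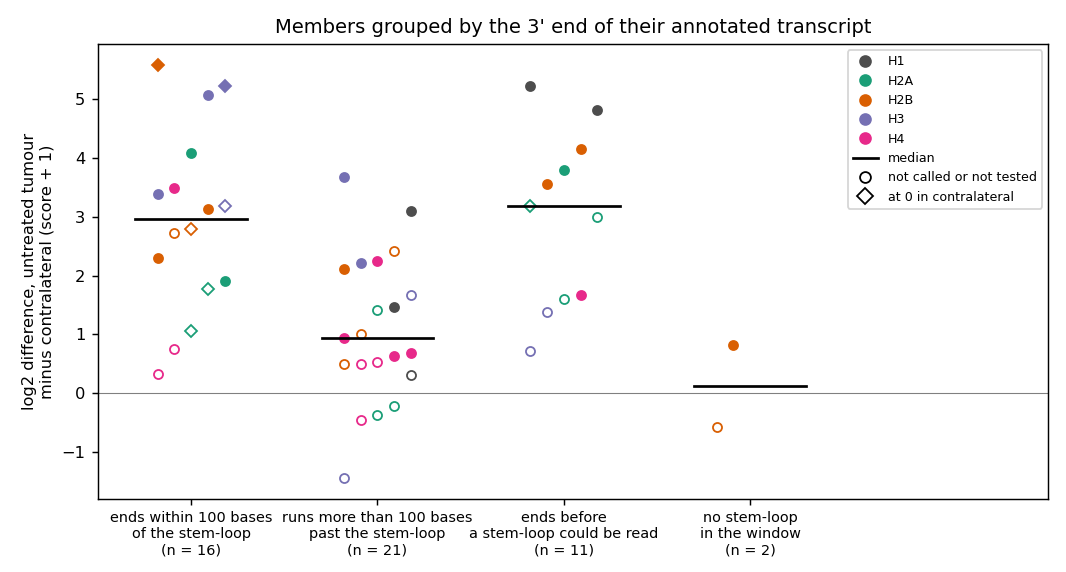
Log2 difference of score + 1 between untreated tumour and contralateral (vertical axis) for the 50 members, grouped by where their annotated transcript ends relative to the stem-loop (horizontal axis). Points are genes coloured by class, filled where the gene rose at an adjusted p below 0.05, and lines are medians. The median is 2.96 where the transcript ends within 100 bases of the stem-loop and 0.94 where it runs further. The median contralateral score of these members was 1.5 and 12.

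Against sham, 24 of 36 tested members rose in untreated tumour and Hist2h2be fell, beside 23.3% of genes tested that rose and 23.3% that fell. Of the 36, 12 had passed the filter only through untreated tumour, which favours the count that rose. Without the filter 28 of all 50 rose and 1 fell, beside 17.9% and 16.8% of all genes. Since untreated tumour is shared with the comparison above, the comparison with sham is not a second experiment. Hist1h1d had 36, 61 and 43 in sham, and its difference was 3.27 ± 0.24 (adjusted p = 1e-08). Hist1h1c had 376, 367 and 367 in sham, a narrower spread than in contralateral, and rose by 0.50 ± 0.16 (adjusted p = 0.016). Hist2h2be had 175, 153 and 164 in sham, above every untreated tumour library, and fell by 0.94 ± 0.30 in log2 units (adjusted p = 0.016). Hist3h2a, at 88, 84 and 71 in sham, was also above every untreated tumour library, with a difference of -0.55 ± 0.25 that missed the threshold (adjusted p = 0.085). Without untreated tumour replicate 1 the number risen was 13, and without either that library or sham replicate 1 the number fallen was 0.

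Between contralateral and sham 0 of 36 members were called by limma, beside 0.432% of genes tested. Hist1h3e, at 2, 0 and 2 in sham and 6, 10 and 7 in contralateral, alone had an unadjusted p below 0.05 (2.03 ± 0.67, adjusted p = 0.2), and voom called 0. The median log2 difference over the 50 was -0.04, and 21 of the 50 differences were above 0.

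After dual therapy 15 of 36 tested members fell and 0 rose relative to untreated tumour, beside 10.2% of genes tested that fell and 12.1% that rose. After triple therapy 23 fell and 0 rose, beside 15% and 17.2%. No member rose at an unadjusted p below 0.05 in either comparison, and voom called 17 and 18 fallen and 0 risen. Without the filter 19 and 24 of the 50 fell, beside 7.57% and 10.7% of all genes, and the median log2 difference was -1.68 after dual and -1.47 after triple therapy. Every treated library was below every untreated tumour library in 28 members after dual therapy and in 31 after triple therapy, beside 13% and 18.2% of all genes. Without untreated tumour replicate 1 the numbers fallen were 8 and 10, without triple therapy replicate 2 the number for triple therapy was 15, and without untreated tumour replicate 3 Hist2h2be rose after triple therapy.

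Hist1h1d fell to 94, 74 and 122 after dual therapy (-2.23 ± 0.24, adjusted p = 1.6e-05) and to 129, 87 and 114 after triple therapy (-2.04 ± 0.24, adjusted p = 9.7e-06). Hist1h1a fell to 38, 29 and 10 and to 26, 35 and 36, differences of -3.17 ± 0.53 and -2.68 ± 0.53 (adjusted p = 0.00046 and 0.00085). Hist1h2ak, at 22, 8 and 8 after dual and 22, 25 and 16 after triple therapy, fell by 3.52 ± 0.49 and 2.70 ± 0.49 in log2 units (adjusted p = 0.00012 and 0.00044). In these 3 genes no treated library reached the lowest untreated tumour library. Hist1h2bg, at 20, 14 and 18 after dual and 20, 20 and 14 after triple therapy, lay within the range of its contralateral scores (adjusted p = 0.0026 and 0.0017 against untreated tumour). Hist4h4 had 18, 31 and 21 after dual therapy (-1.15 ± 0.32, adjusted p = 0.016) and 17, 14 and 18 after triple therapy (-1.61 ± 0.32, adjusted p = 0.001). Hist1h1c had 395, 400 and 415 after dual therapy, not called, and 351, 396 and 420 after triple therapy, where it fell by 0.43 ± 0.16 in log2 units (adjusted p = 0.047), a call lost in several of the alternative fits.

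Hist1h2bc differed from these in its values. It had 249, 219 and 296 after dual therapy, overlapping with the 293, 232 and 234 of untreated tumour (0.01 ± 0.21, adjusted p = 0.99). After triple therapy it had 209, 114 and 175, all below untreated tumour, and fell by 0.64 ± 0.21 in log2 units (adjusted p = 0.024). The direct comparison of triple with dual therapy gave -0.65 ± 0.21 and an adjusted p of 0.15. In that comparison 0 of 36 members were called by limma, beside 0.869% of genes tested. Hist1h2bc alone had an unadjusted p below 0.05, and voom called 0. The median log2 difference over the 50 was 0.17.

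Some members were called above sham after therapy. After dual therapy 7 of 36 had risen relative to sham and 0 had fallen, beside 8.8% and 9.71% of genes tested, and after triple therapy 3 had risen and 0 fallen, beside 5.49% and 4.24%. No member was lower at an unadjusted p below 0.05 in either. As a share of the 36, the 3 that had risen after triple therapy are near that background. Fitted without the filter, 5 of all 50 had risen after dual and 3 after triple therapy, beside 6.16% and 3.9% of all genes. As a share of the 50, the count after dual therapy is thus also near the background. Hist1h1d was 1.04 ± 0.24 above sham after dual therapy (adjusted p = 0.005) and 1.24 ± 0.24 after triple therapy (adjusted p = 0.0025). Hist1h1a was 1.85 ± 0.53 and 2.35 ± 0.53 above it (adjusted p = 0.018 and 0.0065). Hist1h3e, at 2, 0 and 2 in sham and 9, 25 and 10 after dual therapy, gave 2.77 ± 0.67 (adjusted p = 0.0062). Several of these rest on scores of a few reads. By comparison, voom called 1 member in each comparison, and without dual therapy replicate 1 the number after dual therapy was 2, without sham replicate 2 it was 4. Across all 5 groups an F-test called 22 of 36 members, beside 43.5% of genes tested.

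The genes that make, process and deposit histones were described from lists of known members. Of all genes tested, 21.1% rose and 21.4% fell in untreated tumour against contralateral. Relative to untreated tumour 10.2% of genes tested fell after dual therapy and 15% after triple therapy. The counts below stand beside these shares. Of 19 genes of histone pre-mRNA processing and turnover 9 rose and 1, Cpsf3, fell in untreated tumour against contralateral. Slbp, which binds the stem-loops shown above, had 144, 130 and 143 in contralateral and 286, 237 and 253 in untreated tumour (0.89 ± 0.16, adjusted p = 0.00025). It had 165, 125 and 168 after dual and 181, 142 and 181 after triple therapy, and fell in both (adjusted p = 0.0029 and 0.0066). Eri1, an exonuclease that trims the same stem-loop, rose by 0.77 ± 0.15 (adjusted p = 0.00038). Of 8 genes of histone gene transcription Pou2f1 fell and 6 rose, among them E2f1 (3.32 ± 0.42, adjusted p = 5.9e-06) and Ccne2, a cyclin of the kinase that activates Npat (1.57 ± 0.26, adjusted p = 8.6e-05). Npat itself, the coactivator of the clustered genes, gave -0.04 ± 0.12 (adjusted p = 0.79). Of 22 histone chaperones 14 rose and 0 fell, among them Chaf1a of the complex that deposits H3-H4 at the replication fork (2.36 ± 0.22, adjusted p = 2.3e-07). After dual therapy 10 of the 22 fell, and after triple therapy 14.

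Histone variant genes outside the clusters gave a mixed picture. Their mRNAs are mostly polyadenylated, and they include genes expressed outside S phase. Of 11 genes 5 rose and 2, H2afy2 and H3f3a, fell, beside 21.1% of genes tested that rose and 21.4% that fell. The 2 that fell are near that share. The median log2 difference was 0.03. H2afx, whose mRNA exists with both a stem-loop and a poly(A) end, rose by 2.31 ± 0.34 (adjusted p = 3.1e-05) and H2afz by 0.74 ± 0.18 (adjusted p = 0.0032). H3f3a, a gene for the replacement histone H3.3, fell by 0.50 ± 0.14 in log2 units (adjusted p = 0.0089).

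Cell cycle genes were set beside the histone genes and beside the 21.1% of all genes tested that rose in untreated tumour against contralateral. Of 30 genes of S phase and DNA replication 29 were tested and 28 rose, Mcm2 by 1.71 ± 0.14 (adjusted p = 5e-08) and Pcna by 0.48 ± 0.16 (adjusted p = 0.018), and all 20 genes of G2 and mitosis rose, Mki67 by 5.71 ± 0.33 (adjusted p = 1.4e-09). The summed score of the S phase genes ranged from 2999 to 3321 in contralateral and from 9169 to 13050 in untreated tumour. That of the mitosis genes ranged from 368 to 672 and from 9344 to 19928. Both were highest in untreated tumour replicate 1, as was the summed score of the histone genes, where 39 of 50 members had their highest untreated tumour score. After dual therapy 28 of the S phase and 19 of the mitosis genes fell, beside 10.2% of all genes tested. After triple therapy 28 and 20 fell, beside 15%.

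**Figure D5:**
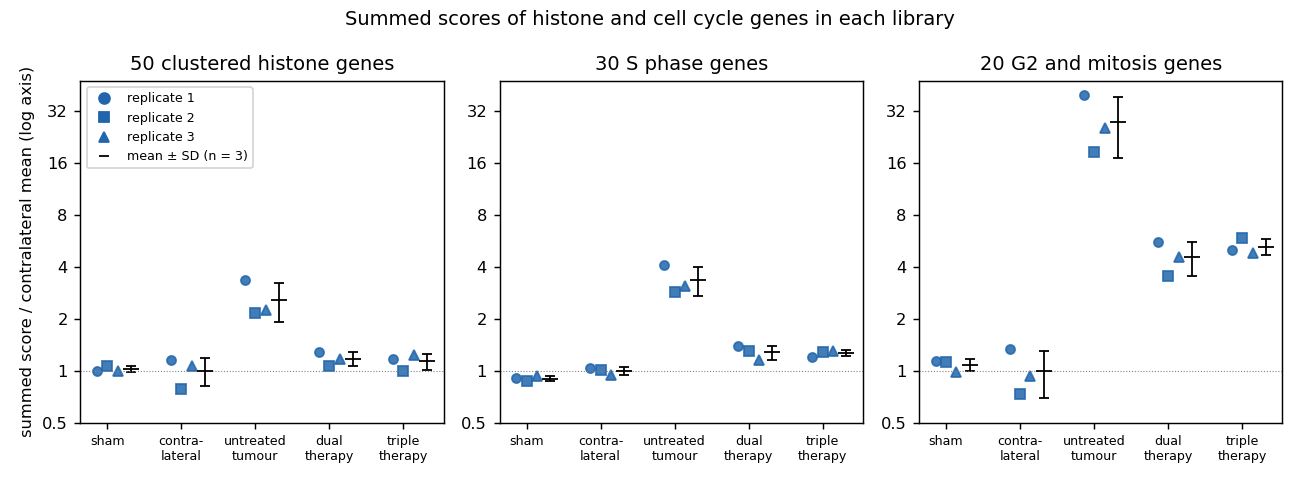
Summed score of the 50 clustered histone genes, 30 S phase genes and 20 G2 and mitosis genes in each library, divided by the contralateral mean (vertical axes, log scale), with replicate numbers as symbols and mean ± SD (n = 3) as a bar. All 3 sums are highest in the untreated tumour libraries and highest of all in replicate 1; the mitosis genes rise furthest.

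Markers of other cells moved with the same groups, and their part in the histone results was not tested. Of all genes tested, 21.1% rose and 21.4% fell in untreated tumour against contralateral. After dual therapy 12.1% rose and 10.2% fell relative to untreated tumour, and after triple therapy 17.2% rose and 15% fell. Some counts below are near these shares, such as 1 of 5 fibroblast markers risen and 1 of 6 microglial markers fallen in untreated tumour. All 12 markers of T and NK cells rose in untreated tumour, with a summed score of 79 to 183 in contralateral and 1376 to 1508 in untreated tumour. After dual therapy 0 of these 12 fell by limma, while their sum was 858 to 1245, below untreated tumour in every library. After triple therapy Gzma and Gzmb fell and the sum was 574 to 1176. Among 7 markers of monocytes and macrophages 5 rose and Mrc1 fell (3450 to 3707 against 6245 to 9318). Of 8 markers of the oligodendrocyte lineage Olig1, Olig2 and Sox10 rose, Olig2 by 3.44 ± 0.28 (adjusted p = 6.3e-08), and Cspg5 fell. The sum of the 8 was 12316 to 12883 in contralateral and 9997 to 12238 in untreated tumour. After dual therapy 3 of them fell, and after triple therapy 3 fell and Cspg5 rose. Markers of the microvessels themselves were present throughout: the 12 endothelial genes summed to 182223 to 213739 in contralateral and to 98478 to 145402 in untreated tumour, where 6 fell and 0 rose, and 6 of 7 pericyte markers fell. The therapies went with the opposite change: 6 endothelial markers rose after dual therapy, 5 rose and 1 fell after triple therapy, and 4 and 6 pericyte markers rose. Of 6 neuronal markers 5 fell in untreated tumour (7800 to 9674 in contralateral against 1391 to 3044), and 4 rose after dual and 5 after triple therapy. Of 6 astrocyte markers 4 fell (32657 to 41098 against 12742 to 14171), and 3 and 4 rose after the therapies. All 3 tested neutrophil markers rose (17 to 52 against 131 to 277), and 1 and 2 fell after the therapies. In untreated tumour 4 of 5 smooth muscle markers fell, 1 of 5 fibroblast markers rose and 3 fell, 3 of 6 microglial markers rose and 1 fell, and 3 of 5 B cell markers rose. The 6 erythrocyte markers summed to 1422 to 2932 in contralateral and 1062 to 2686 in untreated tumour. After dual therapy 3 smooth muscle, 3 fibroblast and 6 erythrocyte markers rose while 2 microglial markers and 1 B cell marker fell. After triple therapy 3, 3 and 5 rose, and of the microglial markers 1 rose and 1 fell. No marker in these 13 lists was at 0 in all libraries of a group. In RNA of mixed cells a change in the number of cells of a type and a change of RNA per cell cannot be told apart.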

How the data were processed

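The 50 members, the gene lists and the tests were chosen with earlier results of these data known. A stranded total RNA kit (SMARTer, Clontech) was used on 100 ng of RNA cleaned with DNase on the column, per the labels' protocols. The submitters' processing notes list STAR 2.4.0a, featureCounts 1.4.5-p1 (Subread) and the build mm10. How strand and reads that match several genes were handled was not stated in the sources used. The authors' deposited table gives each gene a normalised score, a whole number that is not a read count. Reads were estimated from the worth of 1 read in each library (0.656 to 1.86), with a largest error of 0.0177 on 7 simulated libraries.

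Scores were tested as log2(score + 1) with limma 3.58.1 under R 4.3.3, with a prior variance that follows the mean score, 1 mean per group over 15 libraries and 10 residual degrees of freedom, on 19668 genes, with Benjamini-Hochberg adjustment in each of 8 comparisons; 7506 genes were left out by the filter. The fit was tested on simulated data. On this scale differences of low scores are understated. Sequences and coordinates came from GENCODE M21 and RefSeq, both on GRCm38. Named members were, per class, the 3 highest in mean score, those with the largest and smallest difference in untreated tumour, those with the smallest adjusted p in other comparisons, all of H1 and those with a polyadenylated form; other genes were the 4 smallest adjusted p of a list and a fixed set. The text names part of those the rule gives. The alternatives were another pseudocount, other filters, other scalings, no trend, voom, fewer libraries, a replicate block and leaving out each library. Same-numbered libraries correlated between -0.13 and 0.103 in their deviations from group means, so numbers were not taken to pair samples.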

Additional observations from a re-analysis of the deposited data

Results flagged for a closer look

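One row with a clustered histone symbol lay outside the protein-coding rule and so outside every count of members: the processed pseudogene Hist3h2bb-ps. Its scores in untreated tumour were 18, 10 and 14, and the lowest of these, 10, was above the highest score of 5 in the sham and contralateral libraries. It had 7, 3 and 5 after dual and 1, 8 and 6 after triple therapy. The signal was not tested.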

How the results depend on the processing

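How many members were called depended on the setting. With a score of at least 50 in 3 libraries, which tests fewer genes, 10 rose in untreated tumour against contralateral, 10 against sham, 7 fell after dual and 11 after triple therapy, and 3 rose against sham after dual therapy. Leaving out 1 library gave 15 to 23 risen and 0 to 1 fallen against contralateral, 13 to 22 risen and 0 to 1 fallen against sham, 8 to 15 fallen after dual therapy, 10 to 19 fallen and 0 to 1 risen after triple therapy, and 2 to 6 risen after dual and 2 to 4 after triple therapy against sham. Members fallen against sham numbered 2 with quantile normalisation, 2 with voom and 0 with an equal protein-coding sum. Members risen against sham after dual therapy numbered 1 with voom, 2 with only the 6 libraries compared and 2 with a replicate block in those 6; after triple therapy voom gave 1. The replicate block over all 15 libraries left every count of called members within 1.5 times. The summed score in sham was 1421 with an equal protein-coding sum. Npat in untreated tumour against contralateral was 0.014 with quantile normalisation, 0.14 with an equal protein-coding sum, and 0.065 without untreated tumour replicate 2 and dual therapy replicate 2 together, a setting chosen after seeing the data; leaving out 1 library gave -0.14 to 0.065. Hist1h2bc after dual therapy was -0.13 with an equal protein-coding sum and -0.11 to 0.12 leaving out 1 library. Hist1h4i in untreated tumour against contralateral was 0.21 without those 2 libraries together and -0.91 to 0.21 leaving out 1 library. The cause of these shifts was not tested. Scores of a few units are a few reads, which limits the precision for the lowest members.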
